A study of Mus musculus with 4 samples.

Results

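The 36 genes described here are those of disease-associated microglia, and they were taken as a list by name out of 21938 protein-coding genes of GENCODE release M21. Each gene was counted with every row of the authors' deposited tables that lies inside it or within 10000 bp of it on mouse build GRCm38 (mm10). The study compared DNA methylation in untreated microglia sorted from C57BL/6J mice aged 3 months, with 2 wild-type (WT) samples and 2 samples from IRF8KO mice. IRF8 is a transcription factor of myeloid cells that IRF8KO mice lack. The labels give no promoter, Cre line, litter or sex, and methylation differences do not show whether the sorted cells carried microglial markers.

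Microglia are the resident macrophages of the brain. Around amyloid plaques, in demyelination and in ageing they can leave their homeostatic state for one called disease-associated, in which lipid handling, lysosomal digestion and phagocytosis genes are raised. The receptor TREM2, which signals through its adaptor TYROBP, is needed for the full switch. Methylated CpGs at promoters and enhancers generally go with low activity of those elements, while methylation inside gene bodies is common in active genes as well.

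The authors deposited a list of 269406 positions and a list of 3389 regions, each row with a methylation level in 2 numbered groups and their difference. The levels run from 0 to 1. No header says which genotype is the first group, so no genotype was assigned, and a positive difference means higher in the first group. There is no value per sample, hence no spread between replicates and no read depth, and no test was added to the false discovery rates (FDR) of the authors. A position enters the list with a posterior probability of at least 0.95 for a difference over a threshold, whose size the header does not give. An unlisted position is not thereby shown to be unchanged. Neighbouring positions share a fitted value, and runs of positions within 500 bp are called clusters.

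Of the 36 genes, 6 had a region, namely Cadm1, Lgals3, Cd9, Cd63, Fabp5 and Ch25h. That is 16.7% of the list, against 9.19% of the protein-coding genes. Long genes collect more rows, so each gene was set beside the 500 other protein-coding genes nearest in length, of which a mean of 8.14% had a region. At that share 2.93 genes would be counted. A listed position was present at 26 genes (72.2%), against 64.1% of the protein-coding genes and 61.4% of those of like length. At 13 genes (36.1%) a position had an FDR under 0.05, against 30.8% and 27.9%. When positions were limited to those whose dispersion in both groups was their own and not a value shared by many positions, 25 genes had a listed position, against 14.3 at the share of genes of like length. With that limit, 7 genes had a position with an FDR under 0.05, against 3.22. At reference CpGs the count for FDR stayed 13, against 7.73. With an FDR under 0.01 the count was 8, against 7.05, and with an FDR under 0.001 it was 4, against 4.52. The distance to genes of like length thus varied with the positions used and was reversed at the strictest limit. These are counts without a test.

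**Figure D1:**
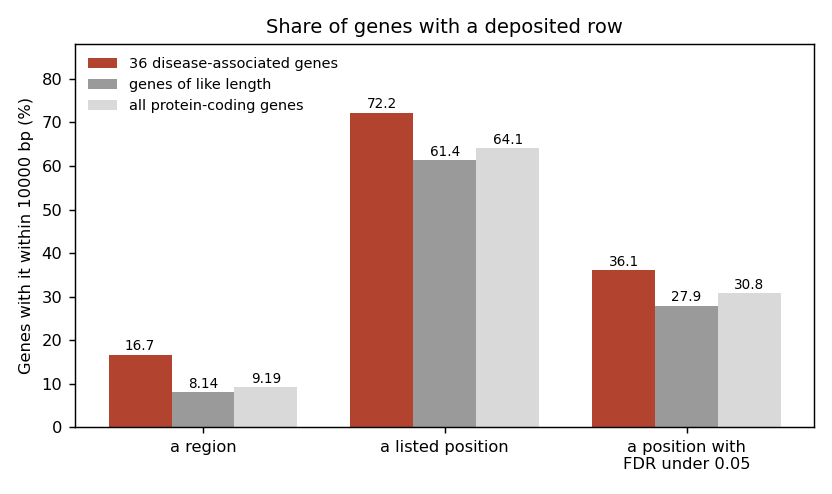
Bars give the percentage of genes with a region, a listed position or a position with an FDR under 0.05 inside the gene or within 10000 bp. The 36 disease-associated genes stand at 16.7%, 72.2% and 36.1%, each above the genes of like length (8.14%, 61.4% and 27.9%) and the protein-coding genes (9.19%, 64.1% and 30.8%).

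Of the 8 regions of the 6 genes, 3 lie in Cadm1. In the first group 6 of the 8 had the higher level and 2 the lower one. That is a share of 75% (95% Clopper-Pearson interval 34.9 to 96.8, counting error only). The interval treats the regions as independent, and it includes the 53.3% of the 3389 regions. By gene, 5 of 36 (13.9%) had a region higher in the first group, against 5.17% of protein-coding genes and 4.54% of those of like length. A lower region was present at 2 genes (5.56%), against 4.69% and 4.14%. Cadm1 counts in both directions. The median absolute difference of the 8 regions was 0.364, below the 0.405 of the whole region list. None of the 8 lay within 1000 bp of the start of a protein-coding transcript.

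**Figure D2:**
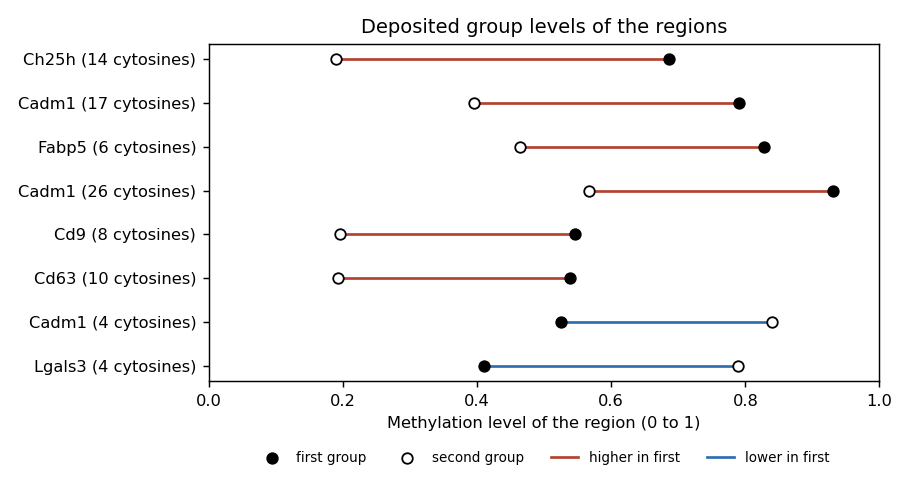
Each line joins the methylation level of a region in the first (filled) and second (open) group, on a scale from 0 to 1, from the authors' deposited table. The Ch25h region spans the widest gap, from 0.189 to 0.687, and the Lgals3 region and 1 Cadm1 region run the other way.

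Of the 3 lipid handling genes, Ch25h and Fabp5 had a region with the higher level in the first group, where 5.17% of protein-coding genes did. Each of the 3 had a position with an FDR under 0.05, where 30.8% of protein-coding genes did. Of the 61 such positions at the 36 genes, Ch25h held 11, Fabp5 4 and Lpl 3. Ch25h encodes cholesterol 25-hydroxylase, which makes the oxysterol 25-hydroxycholesterol. It is a gene of 1387 bp on the minus strand of chromosome 19 (34473778 to 34475164). Its region, from 34473196 to 34474047, begins in the UTR inside the gene and runs past its end. In the authors' deposited table the region had a level of 0.687 in the first group against 0.189 in the second, a difference of 0.498. That was the largest difference of the 8 regions. Of its 14 cytosines, 11 had an FDR under 0.05. The lowest FDR, 7.08e-10, belonged to the CpG at 34473196, where the authors' deposited table gives 0.660 and 0.108, a difference of 0.552 with a standard error of 0.0725.

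Of the 11 positions past the threshold, 8 lie past the end of the gene. A stretch of 300 bases there is shown because it holds 6 of them, without the position of lowest FDR. Capitals mark the CpGs of the reference (plus strand, chr19:34473337-34473636).
Ch25h, downstream stretch: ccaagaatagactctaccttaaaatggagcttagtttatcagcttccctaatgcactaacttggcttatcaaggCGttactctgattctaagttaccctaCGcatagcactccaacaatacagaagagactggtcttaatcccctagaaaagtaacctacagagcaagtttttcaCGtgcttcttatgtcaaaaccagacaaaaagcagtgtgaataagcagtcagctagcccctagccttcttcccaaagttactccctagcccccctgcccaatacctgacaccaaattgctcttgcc
The position of lowest FDR in the stretch, 34473498 (2.08e-05 in the authors' deposited table), is not a CpG of the reference. The stretch holds 3 CpGs. The last of them is the centre of the letters CACGTG (34473510 to 34473515), an E-box of the kind that MITF and TFE factors bind. At its C the authors' deposited table lists 0.661 in the first group against 0.107 in the second, with an FDR of 0.000614, and at its G an FDR of 0.165. The letters CACGTG, searched on both strands, were present in 1 of the 8 regions and in 5.19% of the 3389, without matching for region length.

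The differences at Ch25h extended into the gene with smaller size. The cluster around the region held 30 listed positions over 1544 bp, each higher in the first group. Its 12 positions in the coding sequence, 859 bp and more after the start of the gene, differed by 0.254 to 0.287 in the authors' deposited table, and none had an FDR under 0.05. Upstream of the gene, 3 positions at 3319 bp and beyond were lower in the first group, at 0.592 against 0.898 in the authors' deposited table. In the number of listed positions, Ch25h had 34 of 464 tested (7.33%), the highest share of the 36 genes. Among genes of its length, 1.0% had a region and 13.4% a position with an FDR under 0.05.

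**Figure D3:**
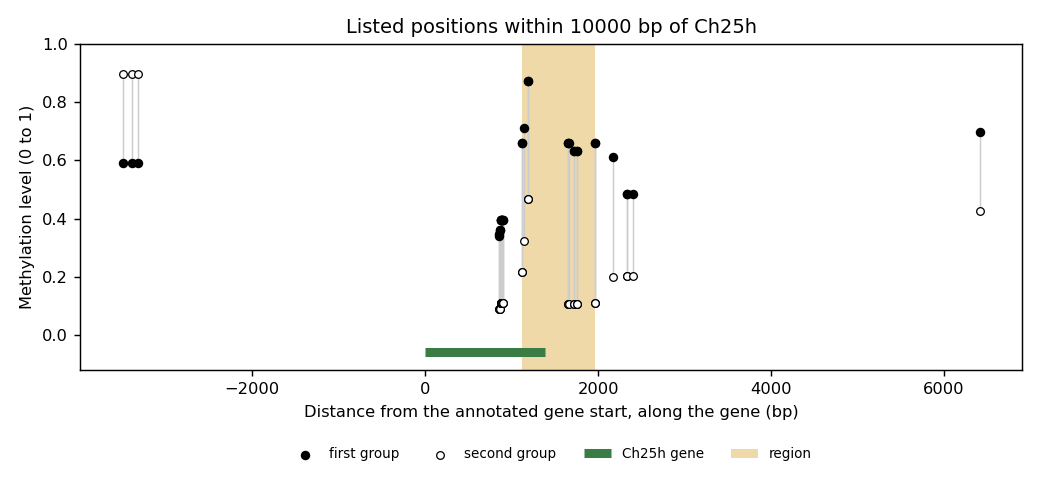
Methylation level (0 to 1) of each listed position within 10000 bp of Ch25h in the first (filled) and second (open) group, against distance in bp from the start of the gene along its strand. Inside and past the gene end the first group lies above the second, the second group runs from 0.105 to 0.467 in the shaded region, and 3 upstream positions show the reverse.

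Fabp5 encodes a carrier protein for fatty acids. It lies on the plus strand of chromosome 3 (10012548 to 10016607), and its region from 10022554 to 10022718 is intergenic, 5947 bp past its end, with Fabp5 the nearest protein-coding gene. In the authors' deposited table the level was 0.828 in the first group against 0.463 in the second, a difference of 0.364. Of the 6 cytosines, 4 had an FDR under 0.05. The lowest FDR there in the authors' deposited table, 3.31e-05, was at 10022675, which is not a CpG of the reference. At the reference CpG position 10022555, the authors' deposited table gives 0.820 and 0.465 with an FDR of 0.0131. The adjacent base 10022554 had equal levels and an FDR of 0.207 in the authors' deposited table. The whole region is shown because it holds each of the 4 positions (plus strand, chr3:10022554-10022718, CpGs in capitals).
Fabp5, whole region: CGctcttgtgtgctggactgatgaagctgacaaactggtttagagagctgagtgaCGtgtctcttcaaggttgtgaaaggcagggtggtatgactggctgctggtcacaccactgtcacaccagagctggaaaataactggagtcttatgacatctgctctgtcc
The stretch holds 2 whole CpGs, and the region's last base begins another.

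Lpl encodes lipoprotein lipase, which frees fatty acids from triglycerides. It had no region. Its 15 listed positions were lower in the first group, and the 3 with an FDR under 0.05 lay past the end of the gene on chromosome 8. At 68912488, the authors' deposited table gives 0.434 in the first group against 0.779 in the second, with an FDR of 0.0127. The adjacent base 68912489 had equal levels but no FDR under 0.05. Its standard error in the authors' deposited table was 0.132, against 0.0780 at 68912488. The lipid genes differed in direction, with Ch25h and Fabp5 higher in the first group and Lpl lower at the positions past the threshold.

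Of the 5 tetraspanins and other membrane glycoproteins, Cd9 and Cd63 had a region, both higher in the first group. Over protein-coding genes, 9.19% had a region and 5.17% a higher one. Among genes as long as Cd9 and Cd63, 8.2% and 5.2% had a region. Tetraspanins organise other membrane proteins, and CD63 is abundant on lysosomes and exosomes. Cd9 lies on the minus strand of chromosome 6 (125460266 to 125494791). The Cd9 region, from 125493154 to 125493232, is in an intron 1559 bp from a transcript start. Its levels in the authors' deposited table were 0.546 and 0.195, a difference of 0.351, and 2 of its 8 cytosines had an FDR under 0.05. The one of lower FDR, 125493182 (0.00492 in the authors' deposited table), is not a CpG of the reference. A second run of 15 listed positions over 290 bp, also intronic, differed by 0.290 to 0.307 in the authors' deposited table, with no FDR under 0.05. Near the other end of the gene, 4 intron positions were lower in the first group.

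Cd63 lies on the plus strand of chromosome 10 (128900989 to 128912822), and its region from 128911396 to 128911487 overlaps coding sequence. In the authors' deposited table the level was 0.539 in the first group against 0.193 in the second, a difference of 0.346. None of its 10 cytosines had an FDR under 0.05, and the lowest FDR in the authors' deposited table was 0.0916. The 26 listed positions of Cd63 formed 1 cluster of 536 bp and were higher in the first group. The regions of the 2 tetraspanin genes are shown because their levels nearly coincide (plus strand, CpGs in capitals, chr6:125493154-125493232 and chr10:128911396-128911487).
Cd9, whole region: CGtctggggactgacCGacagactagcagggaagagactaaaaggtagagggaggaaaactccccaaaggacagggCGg
Cd63, whole region: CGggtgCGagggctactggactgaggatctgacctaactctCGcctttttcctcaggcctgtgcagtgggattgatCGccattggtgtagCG
The Cd9 stretch holds 3 CpGs and the Cd63 stretch 5.

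Gpnmb, a glycoprotein of lysosomes and melanosomes, had 1 position past the threshold. That CpG in an intron (chromosome 6, 49067893) was at 0.566 in the first group against 0.179 in the second in the authors' deposited table, with an FDR of 0.00991. Cd52, a small surface glycoprotein, had 12 listed positions, with differences between -0.330 and -0.258 in the authors' deposited table and a lowest FDR of 0.450. No position was listed at Cd68, a lysosomal membrane protein. Among genes of its length, 43.8% had one.

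Among the 6 receptors and adaptors, Cadm1 stood apart in number of rows. It encodes a cell adhesion molecule of the immunoglobulin superfamily and is the longest gene of the list, with 327465 bp on the plus strand of chromosome 9 (47530173 to 47857637). It held 126 of the 425 listed positions at the 36 genes (29.6%), 28 of the 61 with an FDR under 0.05, and 3 of the 8 regions. Of genes of its length, 28.8% had a region and 89.4% a position with an FDR under 0.05. Its positions fell into 19 clusters, of which each went in a single direction. Of the 126 positions, the first group was higher at 95 and lower at 31.

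The 3 Cadm1 regions are in introns. The first, from 47713444 to 47713897, had levels of 0.931 and 0.567 in the authors' deposited table, a difference of 0.364, and 20 of its 26 cytosines had an FDR under 0.05. The second, from 47770840 to 47771033, had levels of 0.791 and 0.395 in the authors' deposited table, with 1 of 17 cytosines past the threshold, which is not a CpG of the reference. The last, from 47773302 to 47773356, ran the other way, at 0.525 and 0.840 in the authors' deposited table, a difference of -0.316. It held 4 cytosines, and the 2 with an FDR under 0.05 are not CpGs of the reference. The bases of its 1 reference CpG had FDRs of 0.236 and 1.0 in the authors' deposited table. These last regions are shown because they lie close together and differ in direction (plus strand, CpGs in capitals, chr9:47770840-47771033 and chr9:47773302-47773356).
Cadm1, longer region, higher in the first group: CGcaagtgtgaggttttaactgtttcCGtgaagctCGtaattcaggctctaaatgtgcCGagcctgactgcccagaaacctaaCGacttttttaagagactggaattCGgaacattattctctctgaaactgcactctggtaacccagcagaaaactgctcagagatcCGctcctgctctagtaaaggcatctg
Cadm1, shorter region, lower in the first group: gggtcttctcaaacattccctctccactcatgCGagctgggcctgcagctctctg
The longer stretch holds 7 CpGs. Around the shorter one, 19 listed positions over 593 bp were lower in the first group, and the lowest FDR among them in the authors' deposited table was 0.00227.

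**Figure D4:**
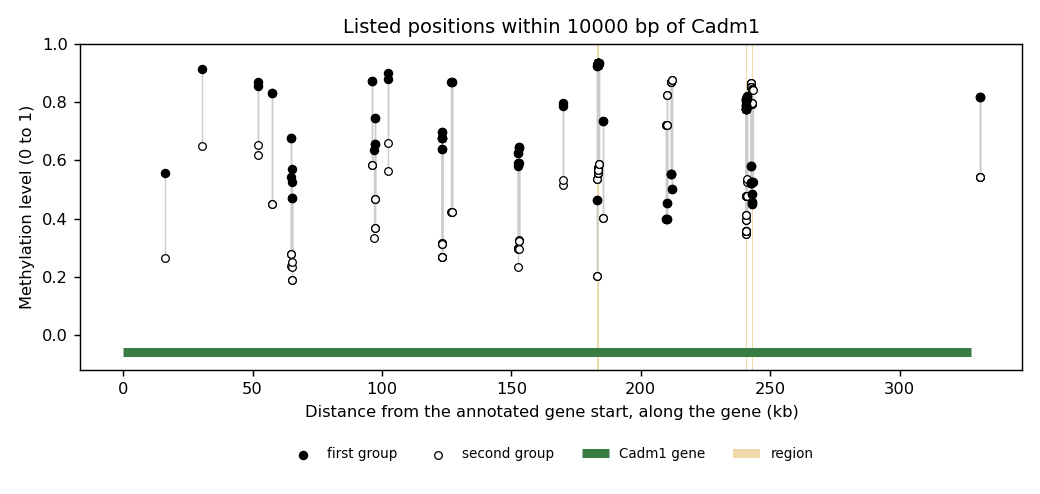
Methylation level (0 to 1) of each listed position within 10000 bp of Cadm1 in the first (filled) and second (open) group, against distance in kb from the start of the gene. Most positions are higher in the first group, and 31 of the 126 are lower.

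Trem2, the receptor that the full disease-associated state depends on, had no listed position among 615 tested. Itgax, which encodes the integrin CD11c, had none among 934. Among genes as long as Trem2 and Itgax, 49.4% and 63.8% had a listed position. Tyrobp, the adaptor that carries the signal of TREM2, had 23 listed positions, each higher in the first group by 0.232 to 0.321 in the authors' deposited table, and the lowest FDR was 0.254. Of these, 6 lay inside Tyrobp, and 15 lay inside the neighbouring gene Hcst, which encodes another signalling adaptor. Of those 15, 11 were within 1000 bp of a start of Hcst. Axl, a receptor tyrosine kinase for the clearance of dying cells, had 14 listed positions in 1 cluster over its start. They were lower in the first group, with median levels of 0.185 and 0.461 in the authors' deposited table, and the lowest FDR was 0.342. Cd83, a surface protein of activated myeloid cells, had 3 positions lower near its start and 3 higher near its end, with no FDR under 0.05.

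The 9 secreted ligands and matrix proteins held 1 region, at Lgals3, and 4 genes with a position past the threshold. Over protein-coding genes, 9.19% had a region and 30.8% such a position. Lgals3 encodes galectin-3, a lectin that binds sugars on glycoproteins. Its region (chromosome 14, 47395726 to 47395779) is 9566 bp past the end of the gene and overlaps coding sequence and UTR of Dlgap5, the nearest gene. In the authors' deposited table it had 0.411 in the first group against 0.790 in the second, a difference of -0.379. None of its 4 cytosines had an FDR under 0.05. The 35 listed positions at Lgals3 were lower in the first group, in 2 clusters, and none was inside the gene.

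Igf1, a growth factor that microglia release, and Dkk2, an antagonist of Wnt signalling, each had their lowest FDR at 1 base of an intron CpG, with opposite directions. At Igf1 (chromosome 10, 87908397) the authors' deposited table gives 0.938 in the first group against 0.551 in the second, with an FDR of 3.2e-06. At Dkk2 (chromosome 3, 132098658) the same table of the authors gives 0.485 and 0.944, with an FDR of 3.05e-06. The other base of the same CpG had equal levels and an FDR of 1.0 at Igf1 and 0.951 at Dkk2 in the authors' deposited table. The bases of low FDR had a dispersion that many positions share, and the other bases one of their own. A second Dkk2 position, at 132145414, was also lower in the first group, with an FDR of 0.0434 in the authors' deposited table. The adjacent base 132145413 had equal levels but no FDR under 0.05. Timp2, an inhibitor of matrix metalloproteases, had 1 intron CpG past the threshold (chromosome 11, 118344256), at 0.625 and 0.890 in the authors' deposited table, with an FDR of 0.00277.

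The chemokine genes differed in how many positions were listed. Ccl3 and Ccl4, chemokines that attract monocytes and lymphocytes, had none among 305 and 314 tested. Among genes of their length, 45.6% and 39.4% had a listed position, so having none was the more frequent outcome. Ccl6, a chemokine of myeloid cells, had 17, none inside the gene. Upstream of it, 13 positions from 83602159 to 83602444 were higher in the first group and 2 from 83600882 to 83600926 were lower. One position of each cluster had an FDR under 0.05, given in the authors' deposited table as 0.0330 and 0.0343. The latter, at 83600926, is not a CpG of the reference. Beside the former, at 83602159, the adjacent base had equal levels but no FDR under 0.05. Spp1, which encodes osteopontin, had 14 listed positions in 1 cluster 8177 bp upstream of the gene on chromosome 5. Their differences lay between -0.411 and -0.359, with median levels of 0.377 and 0.788 in the authors' deposited table, and the lowest FDR was 0.128. Csf1, the ligand of the receptor on which microglia depend to survive, had 8 positions higher in the first group, with a lowest FDR of 0.170 in the authors' deposited table.

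The 6 genes of lysosomal proteases, their inhibitor and lysozyme had no region and 8 listed positions among 4546 tested. Among genes of their length, 2.6% to 7.6% had a region. A listed position was present at 3 of the 6, where 64.1% of protein-coding genes had one. The median protein-coding gene had 0.175% of its tested positions listed. Ctsb, a cysteine protease, had the 2 of the 8 positions with an FDR under 0.05. They are the C and the G of an intron CpG (chromosome 14, 63126327 and 63126328), at 0.472 in the first group against 0.836 in the second in the authors' deposited table, with FDRs of 0.0274 and 0.0203. Ctsl had 3 listed positions past its end and Lyz2, which encodes lysozyme, 1 upstream. The Lyz2 position had levels of 0.449 and 0.948 in the authors' deposited table with a standard error of the difference of 0.219 and an FDR of 1.0. No position was listed at Ctsd, Ctsz or Cst7.

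The 7 remaining genes had no region, where 9.19% of protein-coding genes had one. Hif1a, the hypoxia-inducible subunit of the factor HIF-1, had 8 listed positions, each lower in the first group, and 2 had an FDR under 0.05. The one of lower FDR, 73934051 in an intron (0.0254 in the authors' deposited table), is not a CpG of the reference. At the CpG 73945706 on chromosome 12, in a UTR of Hif1a and of the overlapping Gm49321, the authors' deposited table gives 0.558 and 0.914 with an FDR of 0.0442. The adjacent base 73945705 had equal levels and an FDR of 0.534 in the authors' deposited table. Mamdc2, a proteoglycan of the extracellular matrix, had 2 intron positions past the threshold with opposite directions. The lower one (chromosome 19, 23420949) was at 0.414 and 0.872 in the authors' deposited table with an FDR of 0.0422, and the higher one, at 23404608, differed by 0.182 and is not a reference CpG. Beside the lower one, the base 23420948 had equal levels and an FDR of 0.189 in the authors' deposited table. Ank, a membrane protein of pyrophosphate transport, had 7 listed positions, 6 of them in its introns, and a lowest FDR of 0.0518 in the authors' deposited table. Fth1, the heavy chain of the iron store ferritin, had 5 positions upstream of its start, higher in the first group, with a lowest FDR of 0.995 in the authors' deposited table. Capg, an actin-capping protein, had 1, and Baiap2l2 and Cox6a2 had none. Among genes as long as Baiap2l2 and Cox6a2, 68.8% and 52.6% had a listed position.

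**Figure D5:**
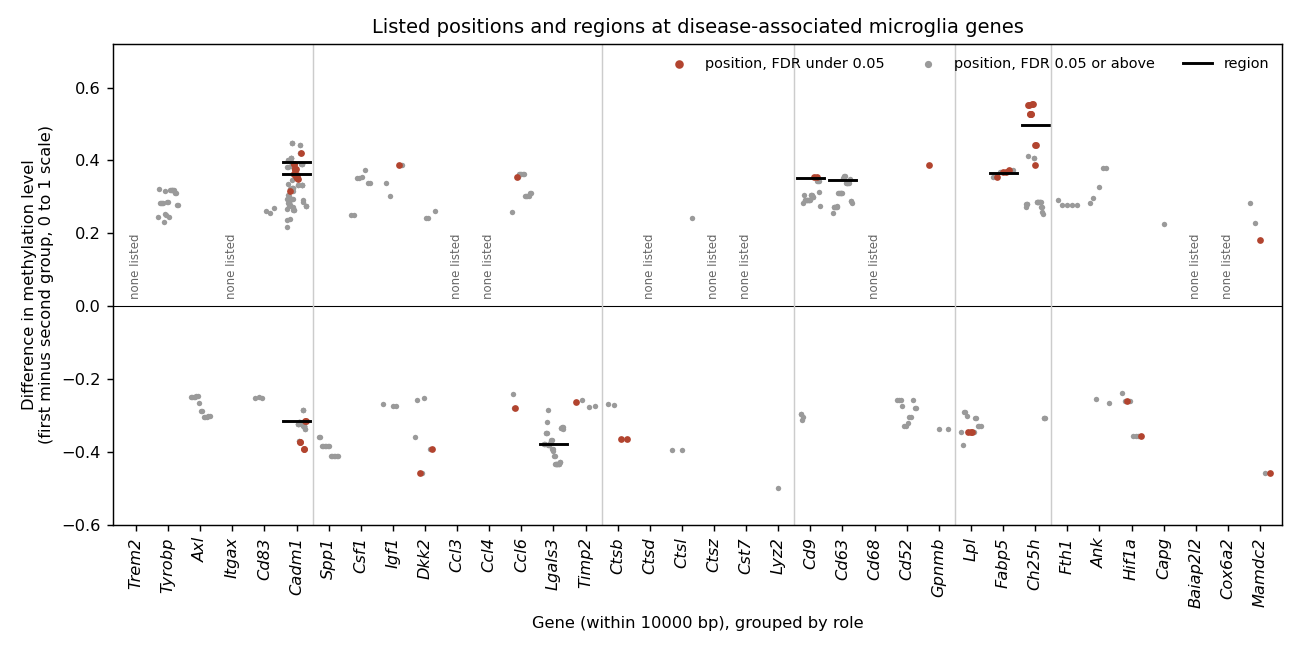
Difference in methylation level (first minus second group) at each listed position of the 36 genes, in columns grouped by role. Points with an FDR under 0.05 are red and bars are regions; 10 genes have no listed position, and Ch25h and Cadm1 hold 39 of the 61 red points.

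In all, 425 positions were listed at the 36 genes, or 0.866% of 49082 tested, and 0.741% without Cadm1. Over the whole table, which includes positions far from genes, the share was 0.630%. As a median over genes it was 0.476% for the 36 and 0.175% for protein-coding genes, not matched for length and without a test. Of the 425 positions, 61 (14.4%) had an FDR under 0.05, against 18.7% over the whole table. Higher levels in the first group made up 60.2% of the 425 and 61.9% of the whole table. For positions with an FDR under 0.05 the shares were 70.5% (43 of 61) and 58.1%. The median absolute difference was 0.325, and 0.329 over the whole table, with median standard errors of 0.0999 and 0.103. Among those 61 the absolute difference had a median of 0.368, against 0.414 for the like positions of the whole table. The listed positions were thus near the whole table in direction and size, though both sets had passed the same threshold on the difference. Those with an FDR under 0.05 were more often higher in the first group and smaller in difference. Cadm1 and Ch25h held 39 of these 61. In 1 Cadm1 region lay 20 and in the Ch25h region 11, each higher in the first group. The share of 70.5% thus rests largely on 2 regions and does not describe the genes one by one. Of these 61, 12 were not on a reference CpG, and 25 had a shared dispersion in at least 1 group. By cluster, 48 of 83 were higher and 35 lower, and none held both directions. Of the 26 genes with a listed position, 6 had higher positions alone, 9 had lower positions alone and 11 had both.

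The 10 genes with no listed position had between 305 and 1849 tested positions, and the 26 others between 426 and 8714. Listed positions within 1000 bp of a start of the gene's own protein-coding transcripts were present at 7 genes. They were lower in the first group at Axl, Cd52, Hif1a and Lyz2 and higher at Ch25h, Igf1 and Capg, and none of these had an FDR under 0.05. The share of all protein-coding genes with a listed position that near a start was not counted. Whether 7 genes are many or few is therefore not known. The 8 regions were also searched on both strands for GGAA and GAAA separated by any 2 bases, the element that IRF8 binds with ETS factors such as PU.1. None held it. Over the whole list 2.16% of higher and 17.6% of lower regions did, shares that come to 0.482 of 8 regions. The motif shares were not matched for length, and the 8 regions had a median of 128.5 bp against 199 bp over the whole list. A pair of GAAA with 2 bases between, which IRF factors bind, and the PU.1 core GAGGAAG were in none of the 8, and in 4.84% and 12.1% of the 3389. The AP-1 site TGANTCA was in 1, the Ch25h region, and in 10.4% of the 3389.

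Of 23 other genes of TREM2 and TYROBP signalling, among them the kinase Syk and the phospholipase Plcg2, 0 had a region, 19 (82.6%) a listed position and 8 (34.8%) a position with an FDR under 0.05. The shares over protein-coding genes were 9.19%, 64.1% and 30.8%. Markers of other cells that a sort could hold were counted in the same way. Of 10 markers of border macrophages and monocytes, 3 had a region, 9 a listed position and 5 a position with an FDR under 0.05. Of their 7 regions, 5 were higher in the first group, all of them at Mrc1 and Cd163. Higher was also the more frequent direction among the 8 regions above (6) and among the 3389 (53.3%). In the authors' deposited table, Mrc1 also had a lower region (-0.351), Plac8 had a lower one (-0.389), and differences reached 0.459 at Cd163. Regions of Cd163 held 35 positions with an FDR under 0.05, those of Mrc1 18 and that of Plac8 2. Among 6 neuron markers 1 had a region and 3 a position with an FDR under 0.05. The 5 astrocyte markers gave 2 and 4, and the 5 oligodendrocyte markers 0 and 2. The 3 astrocyte regions ran from -0.441 to 0.380 and the neuron region was at 0.382 in the authors' deposited table. The part of other cells in the differences at the 36 genes was not tested.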

How the data were processed

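Whole-genome bisulfite sequencing was done on DNA of 40000 sorted microglia per sample (50 ng converted, 8 cycles of PCR, paired reads of 75 bp, per the labels' protocols), with 2 WT and 2 IRF8KO samples. Bismark, Trim Galore and mm10 are named in the submitters' processing notes; the test, its smoothing and its coverage minimum were not given in the sources used here. Both tables are the authors' comparison of the groups, and the number of columns with values per sample left unused was 0. Per the file headers, they hold a methylation level from 0 to 1 fitted by the authors for each numbered group, p-values with their FDR, a posterior probability, and as scores the difference, its standard error, the dispersion and the summed statistic. As tested on the values, the difference is the first minus the second level.

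A gene was counted when a row overlapped it or the 10000 bp on either side (GENCODE M21). Tested positions were read from the deposited row numbers by interpolation. Like length means the 500 other protein-coding genes nearest in log length. Each gene with a region or a position with an FDR under 0.05 was named, and the others were summarised. No test of a site was added, since the unit allows none: the planned model on counts was not run. The counting was tested on simulated data. Sequences and CpGs come from the RefSeq genome of GRCm38. Python 3.11.15, pandas 2.3.3, scipy 1.17.1 and pysam 0.24.0 were used. The genes and the lists were chosen with earlier results of these data known. Within-group spread is not shown by these tables, and the labels do not say whether samples came from separate animals.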

Additional observations from a re-analysis of the deposited data

How the results depend on the processing

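Of 62 alternatives, 45 stayed within 1.5 times the count, or within the 95% interval of the share or median, or within the standard error, and 17 did not. Among the 45 were 16 recomputed differences of the 8 regions, which stayed within the standard error. They were means of each region's own listed positions, or of those on a reference CpG. The deposited difference is itself that mean over the listed positions, so the agreement is no check of it. Other settings among the 45 changed only the genes of comparison, so the counts of listed genes could not move. Merging nearby regions joined none of them, and the share stayed at 6 of 8. The count of 45 thus includes settings without power to move a result, and it is no measure of stability. No paired analysis was possible because neither table gives a level for a single sample. A coverage minimum, a replicate block and leave-one-out fits could not be run for that reason.

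The 6 genes with a region became 12 with a flank of 50000 bp, where genes of like length gave 6.46, and 3 with at least 10 cytosines (1.69) or an area score at or above the median (1.82). The 13 genes with an FDR under 0.05 became 21 with 50000 bp (20.5), 7 at positions with their own dispersion (3.22), 8 with an FDR under 0.01 (7.05) and 4 under 0.001 (4.52), below genes of like length. The wider window holds more rows and the stricter limits fewer. Regions higher in the first group, 75%, became 100% with at least 10 cytosines (4 of 4) or 3 reference CpGs (6 of 6). Higher positions, 60.2%, became 70.5% with an FDR under 0.05, 69.5% in gene bodies and 53.8% without Cadm1, a setting chosen after seeing the data. The median absolute difference of 0.325 became 0.368 with an FDR under 0.05, 0.338 at reference CpGs, 0.341 with own dispersion, 0.293 over clusters and 0.310 without Cadm1; the cause was not tested. Read depth is unknown, so unlisted positions are no sign of equal levels.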
